A study of Mus musculus with 6 samples.

Results

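Semaphorins, plexins, ephrins and Eph receptors are 4 families of guidance cues and receptors that attract, repel or anchor migrating cells, and their RNA levels were examined in tumor endothelial cells (TECs) with forced Notch activation. Members were defined by symbol, with earlier results of these data known, and Efnb2 was placed with the partner genes. Apart from it, every class 3 to class 7 semaphorin, every plexin, and every numbered A or B ephrin or Eph receptor was taken. This gave 50 of the 23473 genes with RefSeq names, namely 20 semaphorins, 9 plexins, 7 ephrins and 14 Eph receptors. Levels are in RPKM, reads per gene length and library total, and 24 members averaged 1 RPKM or more over the 6 libraries, of which 13 were semaphorins, 6 plexins, 2 ephrins and 3 Eph receptors. The other 26 averaged less and were left out of the test.

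The RNA came from TECs of Lewis lung carcinoma (LLC) tumors, a transplanted mouse lung cancer, in 3 NICeCA and 3 control (Ctrl) mice, all C57BL/6 with a stated age of 8 weeks, and the comparison asked how endothelial Notch activation changes the TEC transcriptome. NICeCA mice carried a Cdh5-driven CreERT2 recombinase and, at Rosa26, the intracellular domain of Notch1 behind a floxed stop, so that tamoxifen (100 mg/kg daily for 5 days) switches Notch signaling on only in cells that express Cdh5. Ctrl mice were labelled wild type, and whether they carried Cre or received tamoxifen was not given. The cells were caught on CD31 beads with a stated purity above 90%, and the collection day was given as day 14 in the methods but as differing in the labels. Each library held between 27793301 and 30769916 reads on RefSeq genes.

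Class 3 semaphorins are secreted and mostly reach plexins through neuropilin coreceptors, whereas the other vertebrate classes are anchored in the membrane and bind plexins directly. Plexins switch off small GTPases of the Ras and Rap type, which loosens integrin adhesion and reshapes the actin cytoskeleton. Ephrins sit on the cell surface and bind Eph receptor tyrosine kinases on the neighboring cell, and in vessels these cues set branching, arterial and venous borders and the contact between endothelium and mural cells.

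The marker genes showed endothelial cells together with other cell types in every library. The 15 endothelial markers, all measured, summed to 679, 264 and 346 RPKM in Ctrl replicates 1 to 3 and to 577, 749 and 688 RPKM in NICeCA replicates 1 to 3, with Pecam1 the most abundant. Ctrl replicate 1 thus lay within the NICeCA range, and Ctrl replicates 2 and 3 lay below it. All 15 had a positive log2 difference, with a median of 0.65, but only 3, Emcn, Vwf and Flt1, did not overlap between groups, beside 40.9% of all tested genes. Fewer cells of a type and less RNA per cell cannot be told apart in these bulk libraries, here or in any result that follows.

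Other lineages were present too. The 10 macrophage markers summed to 4469, 3474 and 3267 RPKM in Ctrl and 4804, 3881 and 2802 RPKM in NICeCA libraries, above the endothelial sums, with Cd14 the most abundant. Sums over different genes do not measure shares of cells, so they cannot be set against the stated purity. That list was mixed: Cd14, Cd68, Fcgr1 and Mrc1, 4 of the 10, were higher in every NICeCA library, near the 40.9% of all tested genes without overlap, while the other 6, C1qa, C1qb and C1qc among them, overlapped with negative log2 differences. The 9 neutrophil markers, led by S100a9, summed to 118, 205 and 274 RPKM in Ctrl and 603, 866 and 1675 RPKM in NICeCA libraries, and 7 of the 8 tested were higher in every NICeCA library. The 6 platelet markers summed to 125, 115 and 197 RPKM in Ctrl and 1307, 1211 and 1175 RPKM in NICeCA libraries, but Pf4 made up 83.3% of the sum, and of the 4 tested only Pf4 and Ppbp were higher in every NICeCA library, while Itga2b and Gp1bb overlapped. Sums of the 9 pericyte and smooth muscle markers, led by Rgs5, were 45.9, 37.2 and 54.1 RPKM in Ctrl and 93.4, 77.0 and 145 RPKM in NICeCA libraries. Of the 8 tested, 5 were higher in every NICeCA library, beside 40.9% of all tested genes without overlap, while Pdgfrb, Myh11 and Des overlapped. The 8 fibroblast markers, led by Col3a1, summed to 393, 659 and 457 RPKM in Ctrl and 238, 187 and 365 RPKM in NICeCA libraries. Col3a1 made up 65.4% of that sum, and the list was mixed: 4 of the 8 were lower and 1, Postn, was higher in every NICeCA library, while Col1a1, Col1a2 and Dcn overlapped. The lymphatic chemokine Ccl21a was listed at 0 in all 6 libraries, although the 5 lymphatic markers, of which Pdpn made up 84.3%, summed to 34.1, 47.2 and 71.5 RPKM in Ctrl and 132, 155 and 164 RPKM in NICeCA libraries. Of the 3 tested, only Pdpn was higher in every NICeCA library, while Lyve1 and Flt4 overlapped. Of these lists, only the endothelial one entered a fit, through its mean. That mean was higher in all NICeCA libraries than in Ctrl replicates 2 and 3, so the fit cannot tell marker level from group. For the other lists, their part in the results on guidance genes was not tested.

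Among the 24 tested members, 1 rose in NICeCA TECs, the secreted semaphorin Sema3g, and 4 fell: the receptors Plxna1, Plxna3 and Plxnb2 and the semaphorin Sema5a. In limma on log2(RPKM + 1), these 5 calls at an adjusted p under 0.05 made up 20.8% of the tested members, beside 13.6% of all 12320 tested genes. In the single directions, 5.88% of all tested genes rose and 7.68% fell. The NICeCA means of Plxna3 and Sema5a were below the filter of 1 RPKM, which both passed because of their Ctrl libraries, and without that filter none of the 5 was called, with adjusted p values of 0.0837 for Plxna3, 0.0836 for Sema5a, 0.0706 for Plxna1, 0.0622 for Plxnb2 and 0.0821 for Sema3g in limma. The libraries of the groups did not overlap for 8 members, 2 higher and 6 lower in NICeCA TECs, beside 40.9% of all tested genes. Neither count was tested against these shares. The median log2 difference was 0.11 over the 24 members and -0.05 over all tested genes.

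No ephrin and no Eph receptor was called, and the 19 members without a call are not thereby shown to be equal between groups. At an unadjusted p under 0.05, limma found 9 of the 24 members and 4377 of all tested genes. The calls changed when 1 library was left out: without Ctrl replicate 1, 4 members were higher and 3 lower, without NICeCA replicate 3, 0 were higher and 3 lower, and without any 1 of the remaining 4 libraries none was called, with 7 to 9 members at an unadjusted p under 0.05. The log2 differences of the 5 called members kept their sign in these 6 fits, at 0.94 to 1.44 for Sema3g, -0.65 to -0.48 for Plxnb2, -0.83 to -0.59 for Plxna1, -1.11 to -0.66 for Plxna3 and -1.01 to -0.67 for Sema5a. Calls among all tested genes also changed, from 725 higher and 946 lower to 91 and 14 without NICeCA replicate 1, 26 and 1 without NICeCA replicate 2, and 913 and 748 without Ctrl replicate 3. Of all called genes, 43.4% were higher in NICeCA TECs, compared with 59.4% after trimmed mean scaling and 57.8% after quantile normalization.

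**Figure D1:**
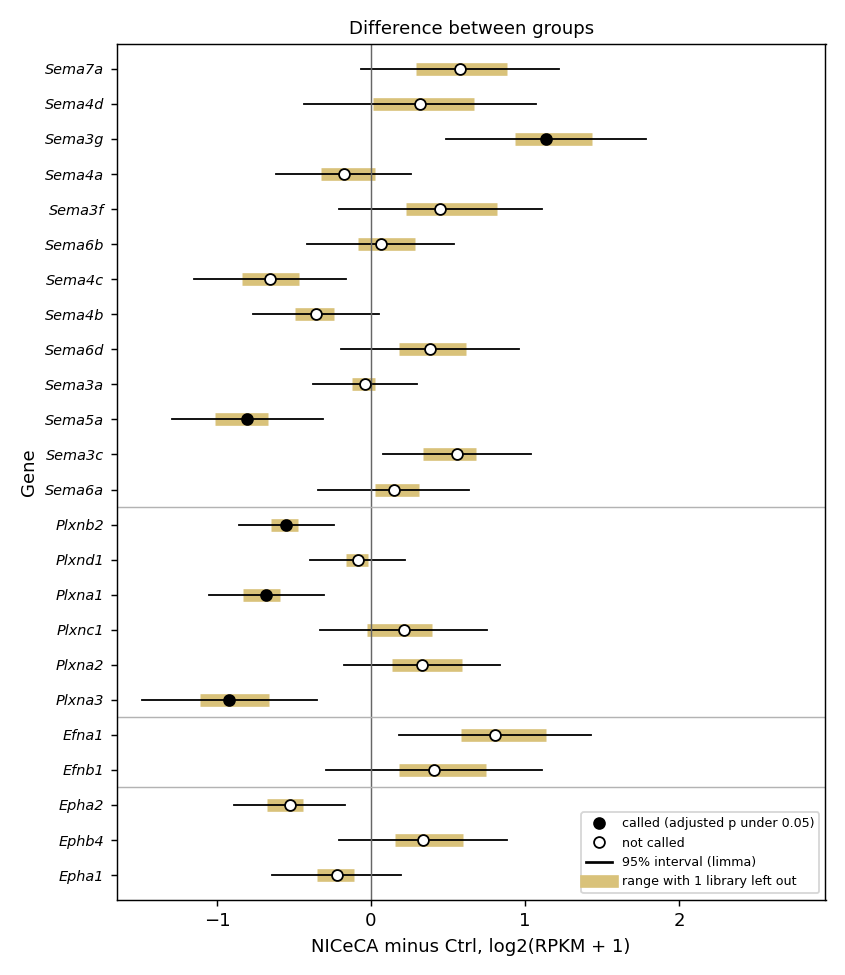
Difference between NICeCA and Ctrl TECs in log2(RPKM + 1) for the 24 tested members, grouped from top to bottom as semaphorins, plexins, ephrins and Eph receptors, with limma's 95% interval as a line and the range with 1 library left out as a band. Filled points mark the 5 called members, of which Sema3g lies at 1.14 and the other 4 lie between -0.92 and -0.55.

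Sema3g, a class 3 semaphorin made by arterial endothelium that signals through neuropilins and plexins, was the only called member with a higher level in NICeCA TECs. It measured 13.8, 6.81 and 7.06 RPKM in Ctrl replicates 1 to 3 and 16.1, 27.3 and 19.4 RPKM in NICeCA replicates 1 to 3. All NICeCA libraries lay above all Ctrl libraries, yet the highest Ctrl library, replicate 1, came close to the lowest NICeCA library, also replicate 1. Means were 9.23 ± 3.99 and 20.9 ± 5.73 RPKM (SD, n = 3 each). Sema3g, at chr14:31217873-31229511 (GRCm38, plus strand), rose by 1.14 on the log2 scale, with an SE of 0.28, a 95% interval of 0.49 to 1.79 and an adjusted p of 0.0413 in limma. The call ended without Ctrl replicate 2 (adjusted p = 0.0968), Ctrl replicate 3 (0.0782), NICeCA replicate 1 (0.106), NICeCA replicate 2 (0.156) or NICeCA replicate 3 (0.0608). With the endothelial marker mean in the fit the difference was 0.52 and the adjusted p 0.268, the highest of its 16 alternatives, which began at 0.0271.

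Sema3f, another secreted semaphorin, which binds Nrp2 and restrains vessel sprouting, measured 18.1, 7.39 and 8.44 RPKM in Ctrl and 14.7, 13.6 and 15.8 RPKM in NICeCA libraries. Its 3 NICeCA values lay close together between the high Ctrl replicate 1 and the lower Ctrl replicates 2 and 3, so the groups overlapped. The log2 difference was 0.45, with an interval of -0.21 to 1.11 and an adjusted p of 0.290 in limma. Without Ctrl replicate 1 it was 0.82 and was called (adjusted p = 0.0308), whereas its other alternatives were not called. With the endothelial mean in the fit its sign turned, with a difference of -0.17 and the highest adjusted p, 0.683.

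Sema3c, a class 3 semaphorin needed for the outflow tract of the developing heart, was scarce at 0.543, 0.649 and 0.812 RPKM in Ctrl and 1.14, 1.07 and 2.31 RPKM in NICeCA libraries. The groups did not overlap, and NICeCA replicate 3 stood above the rest. The log2 difference of 0.56 (interval 0.08 to 1.04) had an adjusted p of 0.102 in limma, and no alternative brought a call. Sema3c passed the filter only through its NICeCA libraries, with a mean over all 6 of 1.09 RPKM. Sema3a, a repellent for endothelial tip cells that binds Nrp1, measured 1.36, 1.68 and 1.77 RPKM in Ctrl and 1.46, 1.31 and 1.85 RPKM in NICeCA libraries. Its groups overlapped almost completely, and the log2 difference of -0.04 had an interval of -0.38 to 0.30. Sema3e, the direct ligand of Plxnd1, stayed below the filter with 0.556, 1.13 and 1.17 RPKM in Ctrl and 0.487, 0.454 and 0.885 RPKM in NICeCA libraries. Its groups also overlapped, through Ctrl replicate 1 and NICeCA replicate 3.

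**Figure D2:**
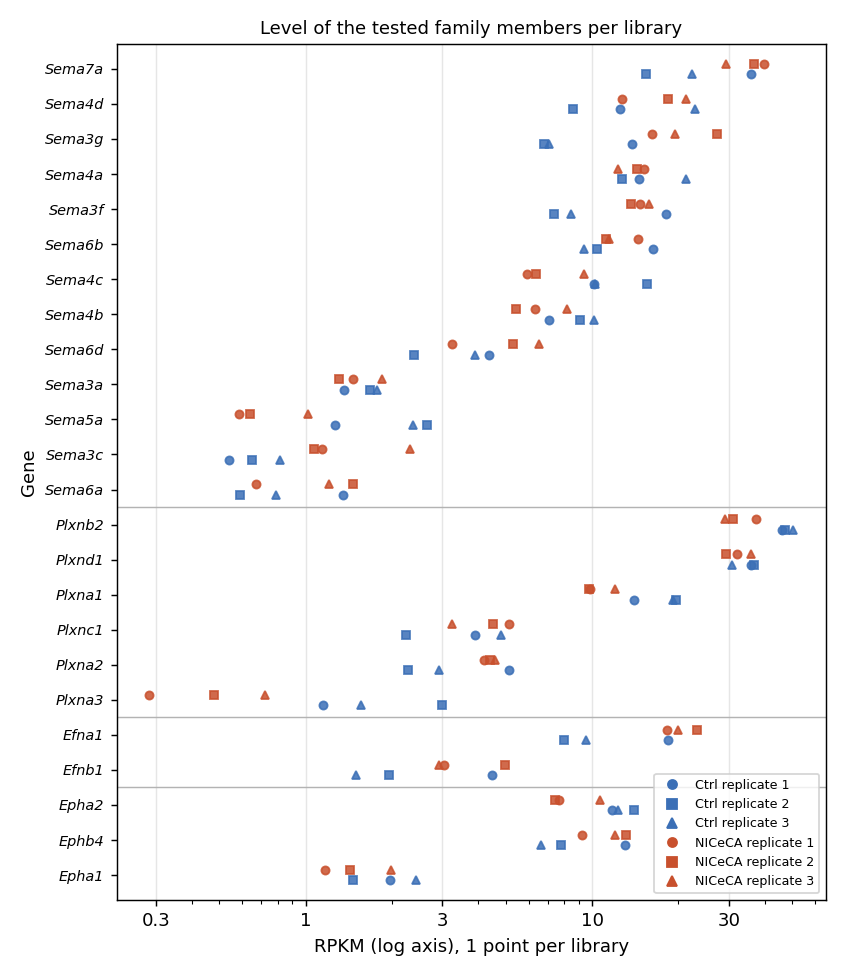
RPKM of the 24 tested members in each of the 6 libraries on a log axis, with blue points for Ctrl and red points for NICeCA libraries and 1 symbol for each replicate number. Plxnb2 is the most abundant member in every Ctrl library, and the NICeCA values of Plxna3 lie at 0.284 to 0.723 RPKM, below its Ctrl values of 1.15 to 3.01 RPKM.

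The semaphorin with the highest mean level, 29.9 RPKM, was the membrane-bound Sema7a. This lipid-anchored ligand of integrins and Plxnc1, which acts on immune cells and endothelium, measured 35.9, 15.4 and 22.3 RPKM in Ctrl and 39.8, 36.6 and 29.4 RPKM in NICeCA libraries. Ctrl replicate 1 again lay inside the NICeCA range, while Ctrl replicates 2 and 3 lay below it. The log2 difference was 0.58 (interval -0.07 to 1.22, adjusted p = 0.178 in limma). Without Ctrl replicate 1 it was 0.88 and was called (adjusted p = 0.0489), whereas without Ctrl replicate 2 it was 0.295. It was 0.032 with the endothelial mean in the fit, where the adjusted p was highest at 0.954.

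Sema4d, a ligand of B plexins that is shed from T cells and platelets and promotes angiogenesis, measured 12.5, 8.61 and 22.8 RPKM in Ctrl and 12.7, 18.4 and 21.3 RPKM in NICeCA libraries. Ctrl replicate 3 was the highest of all 6 libraries, and the groups overlapped. Its log2 difference was 0.32, with an interval of -0.44 to 1.07, and was 0.016 without Ctrl replicate 2 and 0.67 without Ctrl replicate 3. Sema4a, a costimulator of T cells that also restrains endothelial migration through Plxnd1, measured 14.5, 12.8 and 21.3 RPKM in Ctrl and 15.2, 14.3 and 12.3 RPKM in NICeCA libraries. Here only Ctrl replicate 3 stood out, and the log2 difference was -0.18 (interval -0.62 to 0.26). Without that library the sign turned, with a difference of 0.02. Sema6a, a transmembrane semaphorin that binds A plexins and supports endothelial survival, had a mean of 1.01 RPKM, just above the filter. It measured 1.35, 0.590 and 0.788 RPKM in Ctrl and 0.672, 1.46 and 1.21 RPKM in NICeCA libraries, with overlapping groups and a log2 difference of 0.15 (interval -0.34 to 0.64).

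Sema5a fell in NICeCA TECs. Sema5a, which carries thrombospondin repeats and binds plexins such as Plxnb3, measured 1.26, 2.66 and 2.37 RPKM in Ctrl and 0.588, 0.639 and 1.02 RPKM in NICeCA libraries. The groups were apart, although Ctrl replicate 1 stood near NICeCA replicate 3, and with means of 2.10 ± 0.739 and 0.7504 ± 0.238 RPKM (SD, n = 3 each) the gene passed the filter only through its Ctrl libraries. Sema5a, at chr15:32244813-32696341 (plus strand), fell by 0.80 on the log2 scale (SE 0.21, interval -1.29 to -0.31, adjusted p = 0.0460 in limma). The call ended without Ctrl replicate 2 (adjusted p = 0.105), Ctrl replicate 3 (0.0913), NICeCA replicate 1 (0.153), NICeCA replicate 2 (0.167) or NICeCA replicate 3 (0.0528). It also ended with the endothelial mean in the fit, where the difference was -0.46 (adjusted p = 0.340, the highest of 15 alternatives, the lowest being 0.0327).

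Sema4c, a transmembrane ligand of Plxnb2, measured 10.2, 15.6 and 10.2 RPKM in Ctrl and 5.94, 6.35 and 9.40 RPKM in NICeCA libraries. The groups did not overlap, but NICeCA replicate 3 fell only slightly short of the Ctrl libraries. The log2 difference was -0.66 (interval -1.15 to -0.16, adjusted p = 0.0741 in limma). Without NICeCA replicate 3 it was -0.84 and was called (adjusted p = 0.0461 in limma), and over the other alternatives the adjusted p reached up to 0.425. A processed transcript on the opposite strand, D430040D24Rik, overlaps 7.3% of the exon bases of Sema4c, and whether reads were counted by strand was not given. The remaining tested semaphorins, Sema4b, Sema6b and Sema6d, overlapped between groups at means of 7.70, 12.2 and 4.29 RPKM.

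Among the receptors, 3 of the 6 tested plexins fell and none rose, with 2 positive log2 differences, 4 negative ones and a median of -0.32. Among all tested genes 7.68% fell, and 22.1% did among those with gene models of at least 6000 bases, as all 6 of these plexins have. Plxna3, as given above, entered the test because of its Ctrl libraries. The RPKM of all 9 plexins summed to 107, 112 and 110 in Ctrl and 89.9, 80.9 and 87.0 in NICeCA libraries. These sums stayed apart after trimmed mean scaling, at 103 to 111 against 84.3 to 91.7, and after quantile normalization of the tested plexins, at 109 to 122 against 78.1 to 83.9. Neither step takes out a trend on gene length, and no sum was made without that trend. The abundant called plexins Plxnb2 and Plxna1 weigh most in the gap, with Ctrl means of 47.8 and 17.6 RPKM and NICeCA means of 32.5 and 10.5 RPKM, while Plxnd1 overlapped. Single genes did not overlap in 40.9% of all tested genes. The sums of the other 3 families overlapped: 139, 96.8 and 124 RPKM in Ctrl and 134, 144 and 143 RPKM in NICeCA libraries for semaphorins, 25.9, 15.4 and 14.2 against 22.7, 30.1 and 24.9 RPKM for ephrins, and 29.3, 26.6 and 24.2 against 19.8, 24.6 and 27.4 RPKM for Eph receptors.

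Plxnb2, the receptor for Sema4c and other class 4 semaphorins, was the most abundant plexin and supplied 41.1% of the plexin sum. It measured 45.8, 47.3 and 50.4 RPKM in Ctrl and 37.4, 31.0 and 29.2 RPKM in NICeCA libraries. The Ctrl values lay close together and every NICeCA value was well below them, with means of 47.8 ± 2.31 and 32.5 ± 4.31 RPKM (SD, n = 3 each). Plxnb2, at chr15:89155549-89180788 (minus strand), fell by 0.55 on the log2 scale, with an SE of 0.13, an interval of -0.85 to -0.24 and an adjusted p of 0.0395 in limma. Even so, the call ended when any library was left out: the adjusted p was 0.0571, 0.0844 and 0.0625 without Ctrl replicates 1 to 3, and 0.0861, 0.162 and 0.0795 without NICeCA replicates 1 to 3. With the endothelial mean in the fit the difference was -0.46 and the adjusted p 0.262, the highest of 16 alternatives, of which quantile normalization gave the lowest at 0.0196.

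Plxna1, a signaling partner of neuropilins for class 3 semaphorins that also binds class 6 semaphorins, measured 13.95, 19.7 and 19.1 RPKM in Ctrl and 9.82, 9.77 and 12 RPKM in NICeCA libraries. The groups did not overlap, and Ctrl replicate 1 was the Ctrl library nearest to the NICeCA values. With means of 17.6 ± 3.15 and 10.5 ± 1.27 RPKM (SD, n = 3 each), Plxna1, at chr6:89316314-89362613 (minus strand), fell by 0.68 on the log2 scale (SE 0.16, interval -1.05 to -0.31, adjusted p = 0.0381 in limma). The call ended without Ctrl replicate 2 (adjusted p = 0.0915), Ctrl replicate 3 (0.0654), NICeCA replicate 1 (0.136) or NICeCA replicate 2 (0.155), and it was kept in 8 of 16 alternatives with values from 0.0327 to 0.279. Its difference was -0.44 with the endothelial mean in the fit. The antisense transcript Gm26811 overlaps 10.7% of the exon bases of Plxna1, and reads of the pair cannot be told apart without strand.

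Plxna3, another coreceptor of neuropilins and a receptor for Sema3f, was scarce and had the largest relative loss of the plexins. It measured 1.15, 3.01 and 1.56 RPKM in Ctrl and 0.284, 0.477 and 0.723 RPKM in NICeCA libraries. All NICeCA values lay below all Ctrl values, while Ctrl replicate 2 alone was near 3 RPKM. Means were 1.91 ± 0.973 and 0.495 ± 0.220 RPKM (SD, n = 3 each), so Plxna3 passed the filter through its Ctrl libraries. Plxna3, at chrX:74329066-74344689 (plus strand), fell by 0.92 on the log2 scale (SE 0.25, interval -1.49 to -0.35, adjusted p = 0.0469 in limma). The call ended without Ctrl replicate 2 (adjusted p = 0.0845), Ctrl replicate 3 (0.0664), NICeCA replicate 1 (0.156), NICeCA replicate 2 (0.162) or NICeCA replicate 3 (0.0572). It was kept in 4 of 15 alternatives, with adjusted p values from 0.0441 to 0.347. The highest came with the endothelial mean in the fit, at a difference of -0.56. On the smaller pseudocount of 0.1, which compresses low genes less, its log2 difference was -1.72.

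Plxnd1, the endothelial receptor of Sema3e that patterns vessels, was nearly as abundant as Plxnb2 but showed no comparable gap. It measured 35.8, 36.6 and 30.7 RPKM in Ctrl and 32.0, 29.2 and 35.8 RPKM in NICeCA libraries. The groups overlapped, and the log2 difference of -0.09 had an interval of -0.39 to 0.22. With the length trend taken out of each library, the difference was 0.16, so its sign rested on that choice. Plxna2 and Plxnc1, receptors for class 6 semaphorins and for Sema7a, overlapped between groups at means of 3.91 and 3.97 RPKM. Plxnb1, the classical receptor of Sema4d, was not tested, at 0.205, 0.239 and 0.200 RPKM in Ctrl and 0.153, 0.158 and 0.359 RPKM in NICeCA libraries.

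Gene length moved with these results. The 4 members that fell all have gene models of at least 6000 bases, as do 10 of the 24 tested members and all 6 tested plexins, whose median length was 6994 bases. Among all tested genes, 22.1% of the 1283 with at least 6000 bases fell in NICeCA TECs, with a median log2 difference of -0.28, compared with 6.01% and -0.03 for the 11037 shorter genes. After the trend on length was removed from each library, 0 of the 24 members were called by limma, with 10 at an unadjusted p under 0.05. The log2 difference was then -0.31 for Plxnb2 (adjusted p = 0.155), -0.35 for Plxna1 (0.133), -0.67 for Plxna3 (0.123), -0.42 for Sema5a (0.178) and 1.24 for Sema3g (0.0544). The ribosomal RNA precursor Rn45s took 3.86%, 6.40% and 1.87% of the reads on RefSeq genes in Ctrl and 0.82%, 1.06% and 1.92% in NICeCA libraries, so Ctrl replicates 1 and 2 lay above all others while Ctrl replicate 3 lay within the NICeCA range. Its part in these results was not tested.

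In the ephrin system, the ligand Efna1 and its receptor Epha2 had differences of opposite sign, without a call for either. Efna1, a lipid-anchored ephrin that is induced in activated endothelium, measured 18.3, 8.00 and 9.54 RPKM in Ctrl and 18.2, 23.3 and 19.97 RPKM in NICeCA libraries. Ctrl replicate 1 lay at the level of NICeCA replicate 1, whereas the other Ctrl libraries held clearly less. The log2 difference of 0.81 (SE 0.27, interval 0.18 to 1.43) had an adjusted p of 0.0786 in limma. Without Ctrl replicate 1 it was 1.14 and was called (adjusted p = 0.0250), and with the endothelial mean in the fit it was 0.18 (0.536, the highest of 16 alternatives).

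Epha2, the Eph kinase that Efna1 activates during tumor angiogenesis, measured 11.8, 13.99 and 12.3 RPKM in Ctrl and 7.64, 7.44 and 10.7 RPKM in NICeCA libraries. All Ctrl libraries lay above all NICeCA libraries, with the smallest gap to NICeCA replicate 3. The log2 difference of -0.53 (SE 0.16, interval -0.89 to -0.17) had an adjusted p of 0.0590 in limma. Without NICeCA replicate 3 it was -0.68 and was called (adjusted p = 0.0369 in limma), and over the other alternatives the adjusted p went up to 0.335.

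Of the B class members, Ephb4 and Efnb1 passed the filter. Ephb4, the venous receptor of Efnb2, measured 13.0, 7.80 and 6.62 RPKM in Ctrl and 9.23, 13.2 and 12.1 RPKM in NICeCA libraries, with a log2 difference of 0.34 (interval -0.21 to 0.88). Efnb1, a transmembrane ephrin of endothelial and mural cells, measured 4.48, 1.95 and 1.495 RPKM in Ctrl and 3.04, 4.96 and 2.93 RPKM in NICeCA libraries, with a log2 difference of 0.41 (interval -0.29 to 1.11). In Efnb1, Ctrl replicate 1 fell within the NICeCA range and the other Ctrl libraries below it, as they did in Ephb4. With the endothelial mean in the fit both signs turned, to -0.14 for Ephb4 and -0.19 for Efnb1. The partner Efnb2, an arterial marker, measured 8.03, 6.26 and 5.74 RPKM in Ctrl and 6.998, 11.4 and 11.9 RPKM in NICeCA libraries, with a log2 difference of 0.51 (interval 0.03 to 0.99, adjusted p = 0.124 in limma). The difference of Efnb2 was 0.21 with the endothelial mean in the fit. Epha1, the remaining tested Eph receptor, had a mean of 1.74 RPKM and overlapping groups.

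**Figure D3:**
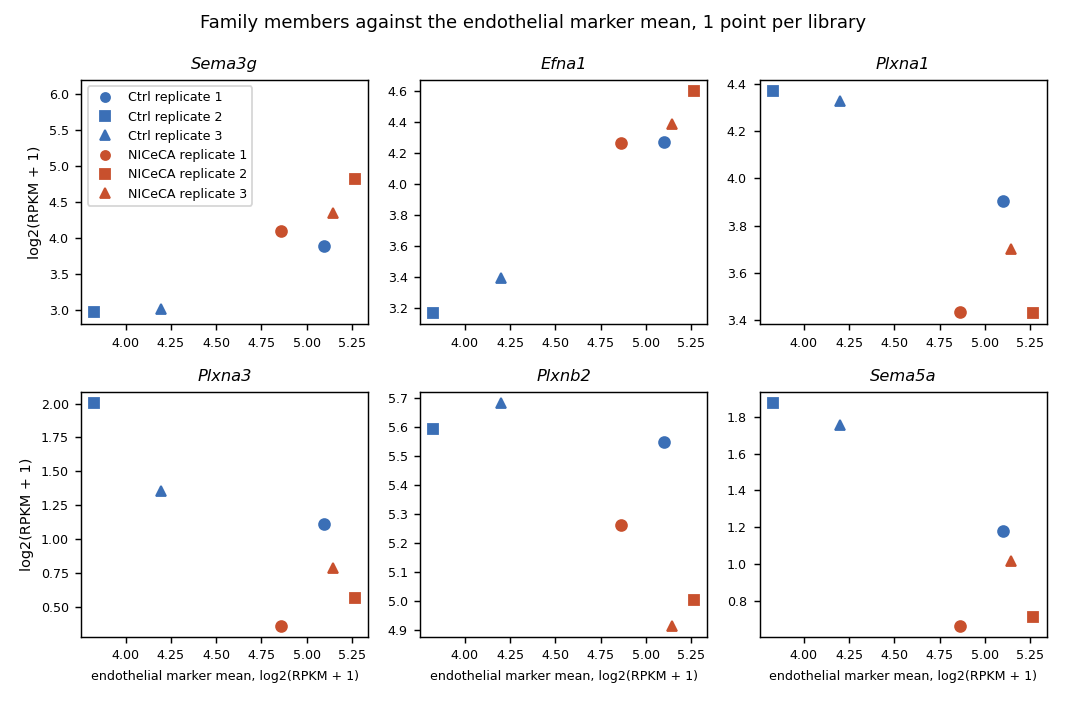
Level of 6 members in log2(RPKM + 1) against the mean of the 15 endothelial markers on the same scale, 1 point for each of the 6 libraries. Ctrl replicate 1, with a marker mean of 5.10, sits beside the NICeCA libraries at 4.86 to 5.27, while Ctrl replicates 2 and 3 sit at 3.83 and 4.20.

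The endothelial marker level divided the Ctrl group in the same way as several members. Its mean in log2(RPKM + 1) was 5.10, 3.83 and 4.20 in Ctrl and 4.86, 5.27 and 5.14 in NICeCA libraries. Efna1, Efnb1, Ephb4, Plxna2, Sema3f, Sema3g, Sema6a, Sema6b, Sema6d and Sema7a were each higher in Ctrl replicate 1 than in the other Ctrl libraries. Lower in it were Epha2, Plxna1, Plxna3, Plxnb2, Sema3a, Sema3c, Sema4b, Sema4c and Sema5a. In Epha1, Plxnc1, Plxnd1, Sema4a and Sema4d, Ctrl replicate 1 lay between the other Ctrl libraries. With this mean as a covariate limma called 0 of the 24 members and 0 of the 12320 genes, with 3 members and 2164 genes at an unadjusted p under 0.05. Of the 24 members, 16 kept the sign of their difference, and the median was -0.16.

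The partners of the 4 families were described from lists of surface partners, plexin effectors and Eph or ephrin effectors. Of 14 tested surface partners, limma called 1 higher and 0 lower, with the integrin subunit Itga1, whose heterodimer binds Sema7a, the gene that rose (log2 difference 0.92, SE 0.23, adjusted p = 0.0423). This is 7.14% of the list, beside 13.6% of all tested genes, and 7 of the 14 had an unadjusted p under 0.05, beside 4377 of the 12320. The call of Itga1 ended without Ctrl replicate 1 (adjusted p = 0.0522 in limma), Ctrl replicate 2 (0.0546), NICeCA replicate 1 (0.121), NICeCA replicate 2 (0.155) or NICeCA replicate 3 (0.0775). It also ended with equal replicate numbers taken as pairs (0.0589) and with the endothelial mean in the fit (0.320). Nrp1, the coreceptor of Sema3a, had 28.6, 20.5 and 24.7 RPKM in Ctrl and 30.7, 27.8 and 24.7 RPKM in NICeCA libraries. Nrp2, the coreceptor of Sema3f, had 26.7, 34.2 and 34.2 RPKM in Ctrl and 23.6, 22.8 and 30.5 RPKM in NICeCA libraries. Both overlapped between groups, with log2 differences of 0.17 (interval -0.18 to 0.53) and -0.30 (-0.67 to 0.07). That of Nrp2 was -0.004 with the length trend removed and -0.11 with the endothelial mean in the fit. Kdr, the VEGF receptor that pairs with neuropilins, had a difference of 0.67 (SE 0.29, adjusted p = 0.142 in limma), which was 0.088 with the endothelial mean in the fit.

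Of the 32 tested plexin effectors, limma called 0 higher and 7 lower, with 15 at an unadjusted p under 0.05 and a median log2 difference of -0.24. The calls are 21.9% of the list, beside 7.68% of all tested genes called lower and 5.88% called higher. The genes that fell were the exchange factors Farp1 (-1.06), Farp2 (-0.67) and Arhgef12 (-0.62), the collapsin response mediators Dpysl3 (-0.90) and Dpysl2 (-0.47), the cofilin kinase Limk1 (-0.75) and the small GTPase Mras (-0.61). Farp2, which binds A plexins and links class 3 semaphorins to Rac, measured 1.87, 2.64 and 1.93 RPKM in Ctrl and 0.967, 0.869 and 1.05 RPKM in NICeCA libraries. Its NICeCA mean of 0.962 RPKM was below the filter, which it passed because of its Ctrl libraries, and without that filter its adjusted p in limma was 0.0623. Limk1, which controls actin turnover, measured 5.01, 5.71 and 4.49 RPKM in Ctrl and 3.39, 2.39 and 2.16 RPKM in NICeCA libraries. In both, every NICeCA library lay below every Ctrl library. The count of 7 became 5, 0 and 5 without Ctrl replicates 1 to 3, and 0, 0 and 4 without NICeCA replicates 1 to 3, with 11 to 16 effectors at an unadjusted p under 0.05 in limma. It was 1, Dpysl3, with the length trend removed (14 at an unadjusted p under 0.05), where Arhgef12 went from -0.62 to -0.25 (adjusted p = 0.273 in limma), 0 without the filter on level (16) and 0 with the endothelial mean in the fit (8).

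Of the 27 tested effectors of Eph receptors and ephrins, limma called 2 higher and 5 lower, with a median log2 difference of -0.16. These are 25.9% of the list, beside 13.6% of all tested genes, of which 5.88% were higher and 7.68% lower. The pair of Rac exchange factors that Eph receptors recruit in endothelium differed in sign. Vav2 fell, with 6.501, 6.67 and 7.08 RPKM in Ctrl and 2.76, 3.23 and 3.55 RPKM in NICeCA libraries (log2 difference -0.89, SE 0.12, adjusted p = 0.0111 in limma). Vav3 rose, with 6.09, 4.68 and 9.82 RPKM in Ctrl and 12.7, 11.9 and 12.1 RPKM in NICeCA libraries (0.80, SE 0.22, adjusted p = 0.0494). Neither gene overlapped between groups. The call of Vav2 ended without NICeCA replicate 1 (adjusted p = 0.0533 in limma) or NICeCA replicate 2 (0.0651), and that of Vav3 when any 1 library except Ctrl replicate 3 was left out, with values from 0.0818 to 0.161. Sdcbp, a PDZ adaptor of B ephrins, also rose (1.09), and the kinases Abl1 (-0.47) and Abl2 (-0.61), the lipid phosphatase Inppl1 (-0.62) and the PDZ protein Pick1 (-0.71) fell. The count of 2 higher became 2, 1 and 2 without Ctrl replicates 1 to 3 and 0, 0 and 1 without NICeCA replicates 1 to 3, while that of 5 lower became 2, 1 and 3 and then 0, 0 and 2, with 8 to 13 effectors at an unadjusted p under 0.05 in limma. With the length trend removed 2 were higher and 1, Vav2, lower (10 at an unadjusted p under 0.05), without the filter on level 0 were higher and 2, Vav2 and Inppl1, lower (15), and with the endothelial mean in the fit limma called 0 in either direction (6).

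The 26 members below 1 RPKM comprised 7 semaphorins, 3 plexins, 5 ephrins and 11 Eph receptors. Just below the filter were Efna4 with a mean of 0.991 RPKM and Efna5 with 0.961 RPKM, and just above it were Sema6a with 1.01 RPKM and Sema3c with 1.09 RPKM. Efna5, a ligand of A class Eph receptors, measured 1.02, 2.11 and 1.28 RPKM in Ctrl and 0.287, 0.452 and 0.628 RPKM in NICeCA libraries, which did not overlap. Without a filter on level its log2 difference was -0.74 and its adjusted p in limma 0.0739. In that fit Sema6c was at -0.36 (0.0655), and Ephb2 and Sema3d, which had higher levels in every NICeCA library, were at 0.24 (0.0753) and 0.15 (0.0760), and 0 of the 50 members were called, with 16 at an unadjusted p under 0.05. The neuronal receptors Epha5, Epha6, Epha7 and Epha8 had at most 10 reads in any library. The remaining members below the filter were Efna2, Efna3, Efnb3, Epha10, Epha3, Epha4, Ephb1, Ephb2, Ephb3, Ephb6, Plxna4, Plxnb3, Sema3b, Sema3d, Sema4f, Sema4g, Sema5b and Sema6c, none above 1.78 RPKM in any library.

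Promoter windows were searched for TGGGAA, the core motif of the Notch partner RBPJ, because the intracellular domain of Notch acts through that protein, and for the MYC E-box CACGTG. The windows run from 250 bases before to 50 bases after each start (RefSeq, GRCm38.p6), both strands were read, and 44 of the 50 members had at least 1 window. TGGGAA was found in 24.1% of the 58 member windows and in 25.6% of all 32851 windows, and CACGTG in 6.90% and 7.15%. Of the called members with a window, Sema3g, Sema5a and the first of the Plxnb2 windows held TGGGAA, whereas the other Plxnb2 window, chr15:89173902-89174201, and that of Plxna3 did not. The 3 windows with the motif are shown so that the called gene that rose can be read beside those that fell. Capitals mark the motif, which reads TTCCCA where it lies on the other strand. A match describes these letters only and is no evidence of binding. The windows are chr14:31217623-31217922 (plus strand) for Sema3g with the motif at position 281, chr15:32244563-32244862 (plus strand) for Sema5a at position 107, and chr15:89180739-89181038 (minus strand) for Plxnb2 at position 160.
Sema3g: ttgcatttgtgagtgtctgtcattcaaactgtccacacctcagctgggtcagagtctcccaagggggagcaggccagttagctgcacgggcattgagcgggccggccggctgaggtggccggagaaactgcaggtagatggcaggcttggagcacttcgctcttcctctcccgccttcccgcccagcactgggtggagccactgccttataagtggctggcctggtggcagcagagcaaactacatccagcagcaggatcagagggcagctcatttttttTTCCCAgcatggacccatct
Sema5a: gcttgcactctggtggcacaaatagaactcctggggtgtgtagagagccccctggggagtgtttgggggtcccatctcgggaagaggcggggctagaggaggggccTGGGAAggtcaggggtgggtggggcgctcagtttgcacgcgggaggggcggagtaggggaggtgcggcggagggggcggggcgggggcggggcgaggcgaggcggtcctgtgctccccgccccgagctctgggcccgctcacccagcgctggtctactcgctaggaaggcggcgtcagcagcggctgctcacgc
Plxnb2: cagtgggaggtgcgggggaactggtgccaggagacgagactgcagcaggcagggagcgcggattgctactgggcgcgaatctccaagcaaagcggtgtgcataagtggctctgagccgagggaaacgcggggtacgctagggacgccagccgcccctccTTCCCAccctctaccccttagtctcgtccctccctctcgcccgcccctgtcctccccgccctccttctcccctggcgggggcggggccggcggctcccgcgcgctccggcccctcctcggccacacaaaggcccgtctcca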

How the data were processed

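TEC libraries of 3 NICeCA and 3 Ctrl mice were matched to their groups by sample title and library label. The authors deposited RPKM values for 56826 gene models, aligned with TopHat2 according to the submitters' notes. How reads were counted, and whether by strand, was not given in the sources used here. Although mm9 is the build in those notes, 99.3% of genes matched by symbol overlap their GRCm38 position, so positions are those of GRCm38. Multiplying RPKM by length gave whole reads for 100.0% of values under 1000 reads, within 0.05 of a read. FANTOM3 models (33353) were left out because many cover the same exons.

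RefSeq genes with a mean RPKM of 1 or more were compared with limma 3.58.1 in R 4.3.3 on log2(RPKM + 1), using lmFit and eBayes with the variance trend, two-sided. P-values were adjusted by Benjamini-Hochberg over these 12320 genes, and a gene was called at an adjusted p under 0.05. Differences of scarce genes are understated by the pseudocount of 1. The OmicShare tools named in the paper were not run here. Values per library are given for members that were called, that were tested and did not overlap between groups with a log2 difference of at least 0.5 in size, that were among the 8 most abundant, or that are best known from vessels. Partner genes are named when called, and Nrp1, Nrp2, Kdr and Efnb2 always. Members and lists were chosen with earlier results of these data known, and Efna5, Farp2, Limk1, Vav2 and Vav3 were given values per library after these were seen. Ratios of 6 pairs of genes were computed after the values were seen, of which 3 overlapped between groups and 3 did not, and they are not reported. The procedure was also run on simulated reads, drawn with the same relative spread for every gene and no length trend. These libraries differ from that setting, so the run does not show how the procedure performs on them. The 16 alternatives were a replicate block, leaving out each library, trimmed mean scaling, quantile normalization, no filter, a filter at 5 RPKM, a pseudocount of 0.1, no variance trend, voom on recovered reads, removal of a length trend (lowess, span 0.3) and an endothelial marker covariate. Figures were drawn with matplotlib 3.10.9.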

Additional observations from a re-analysis of the deposited data

How the results depend on the processing

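The calls among the members lay close to the threshold, with limma's 5 adjusted p values between 0.0381 and 0.0469. Under every alternative that tested them, the 5 called members kept the sign of their difference, but not always their call. The methods mention pairs of mice but not which libraries form them, and the replicate block takes equal numbers as pairs. Deviations from the group mean correlated at 0.122, -0.343 and -0.178 for equal numbers, and of the 6 libraries only NICeCA replicate 1 correlated best with its own number. With the replicate block, limma called 0 members higher and 0 lower (10 at an unadjusted p under 0.05). It called 0 plexin effectors lower, and 0 and 1 Eph effectors higher and lower. It also called 1 surface partner higher, which was not Itga1 (adjusted p = 0.0589). All called genes numbered 327 higher and 209 lower in place of 725 and 946.

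With quantile normalization, 0 members were called higher and 2 lower, 0 surface partners higher, 2 plexin effectors lower, and 0 and 3 Eph effectors higher and lower. With no filter, where more genes are tested, 0 members were called in either direction, 0 surface partners higher, 0 plexin effectors lower, and 0 and 2 Eph effectors higher and lower. With the length trend removed, 0 members were called, 2 surface partners were higher, and 1 plexin and 1 Eph effector were lower. With the endothelial covariate, 0 members and 0 genes of the partner lists were called in either direction (3 members, 1 surface partner, 8 plexin and 6 Eph effectors at an unadjusted p under 0.05). With the filter at 5 RPKM, where fewer genes are tested, 2 members and 3 Eph effectors were lower. The 5 Eph effectors called lower became 3 with voom, with trimmed mean scaling and without the variance trend. A pseudocount of 0.1 and the fit without the trend each gave 1 Eph effector higher and 1 surface partner lower. The cause was not tested where the construction of the alternative does not show it.

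Leaving out 1 library at a time gave 0 to 4 members higher and 0 to 3 lower, 0 to 2 surface partners higher and 0 to 1 lower, 0 to 2 plexin effectors higher and 0 to 5 lower, and 0 to 2 Eph effectors higher and 0 to 3 lower. Over all tested genes the total of calls then ranged from 26 higher and 1 lower without NICeCA replicate 2 to 913 higher and 748 lower without Ctrl replicate 3. Lower calls were most numerous without NICeCA replicate 3, at 832 beside 511 higher. Some differences that were not called changed sign. Sema3a, at -0.04, was 0.0001 with trimmed mean scaling, 0.12 with quantile normalization, 0.23 with the length trend removed, 0.074 with the endothelial covariate and -0.13 to 0.028 with 1 library left out. Sema4a ranged from -0.32 to 0.025 with 1 library left out, and Plxnd1 was 0.16 with the length trend removed. With the endothelial covariate, Efnb1 turned from 0.41 to -0.19, Ephb4 from 0.34 to -0.14, Sema3f from 0.45 to -0.17, Sema6a from 0.15 to -0.23 and Nrp1 from 0.17 to -0.016. Of the values of named genes, 378 kept direction and side of the threshold, 185 lost a call and 5 gained one.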
